A study of Mus musculus with 12 samples.

Results

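The rows described here are Gm15587 and Gm28523, non-coding genes that lie on the strand opposite to Nos3 and Pde3a, together with the own rows of Nos3 and Pde3a. They are 4 of the 55487 gene rows in the deposited count table, and all 4 were among the 13181 rows that passed the filter on low counts. The rows were chosen by name, with the day 10 values of the opposite rows already known. The day 10 values of the 4 rows against vehicle and against day 5 are therefore given as a description, with no test. The day 5 comparison with vehicle was tested, although its vehicle libraries also served the choice.

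RNA was sequenced from nasal tissue of C57BL/6 male mice of 6 weeks, which the labels describe as nasal epithelium, in a study of diesel particles and nasal inflammation. The vehicle group received PBS and is labelled day 10 (replicates 2, 4, 5 and 6). The KDP20 groups are labelled day 5 (replicates 5, 6, 7 and 8) and day 10 (replicates 1, 2, 3 and 5), and the labels do not define KDP20 further. The labels name no dose, route, allele or transgene. Whether the libraries stand for different animals is not stated in the labels, and p-values then cover only the spread among the libraries, which may be technical. Vehicle and day 5 differ in exposure and in day together, and the effects of these cannot be told apart.

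Nos3 is the endothelial nitric oxide synthase. Nitric oxide diffuses into smooth muscle, where soluble guanylate cyclase makes cyclic GMP, and the muscle relaxes. Pde3a is a cyclic nucleotide phosphodiesterase of vascular smooth muscle and platelets that breaks down cyclic AMP and is inhibited by cyclic GMP, so that both genes act on the same pair of messengers in the vessel wall.

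The libraries held 1658420 to 3227138 counts, and a floor of 3 counts lay at 0.839 to 2.06 CPM, the count scaled by the TMM-adjusted library size. The strand setting of the counting is not given in the sources used here. Own rows of some abundant genes were low, as for the airway cytochrome P450 gene Cyp2f2, whose row held 46 to 331 counts, against 27656 to 84309 in the opposite row Gm15883. Where exons overlap, a count in an opposite row therefore cannot be assigned to the non-coding gene rather than to its coding partner. The row CT010467.2, whose identifier was not found in GENCODE M21, took 7.25% to 12.6% of counts in the vehicle and day 5 libraries and in day 10 replicate 1. In day 10 replicates 2, 3 and 5 it took 25.5%, 17.9% and 22.9%, so these 3 libraries stood apart from the other 9.

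Gm15587 (ENSMUSG00000086769) is an antisense gene on the minus strand of chromosome 5, from 24366192 to 24383614 in GRCm38 (mm10). It has 6 exons of 3759 bases in all, after joining its 2 transcripts. Nos3 (ENSMUSG00000028978) runs over the same region on the plus strand, from 24364810 to 24384474, with 26 exons of 4132 bases. The exons of the 2 genes share 1040 bases in 10 blocks, and each of these bases is coding sequence of Nos3. The shared bases are 27.7% of the Gm15587 exons and 25.2% of the Nos3 exons. Nos3 also shares 294 exon bases with Atg9b, an autophagy gene on the minus strand.

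Gm28523 (ENSMUSG00000100707) is an antisense gene on the minus strand of chromosome 6, from 141246920 to 141250009, with 2 exons of 1588 bases. Pde3a (ENSMUSG00000041741) starts on the plus strand at 141249269 and ends at 141507448, with 16 exons of 12737 bases. The shared stretch is a single block of 741 bases at the first exon of Pde3a, of which 420 are coding. It makes up 46.7% of the Gm28523 exons and 5.82% of the Pde3a exons. Reads from the other exons of Pde3a, spread over 258180 bases, therefore have no counterpart in Gm28523.

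The exon pairs below, from the GENCODE M21 transcripts on GRCm38, show what the 2 members of a locus share, where a read cannot be assigned without strand. Capitals mark the shared stretch, which on the opposite strand is the reverse complement of its partner. The first pair, the smallest of the 10 blocks, is Gm15587 exon 3 (chr5:24370754-24370832, minus strand) and Nos3 exon 9 (chr5:24370788-24370889, plus strand), which share 45 bases. The second pair is the first 60 bases of Gm28523 exon 1 (chr6:141249950-141250009, minus strand), all within Pde3a, and 120 coding bases of Pde3a exon 1 (chr6:141249950-141250069, plus strand).
Gm15587 exon 3: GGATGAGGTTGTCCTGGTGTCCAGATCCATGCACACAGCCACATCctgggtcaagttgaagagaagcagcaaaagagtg
Nos3 exon 9: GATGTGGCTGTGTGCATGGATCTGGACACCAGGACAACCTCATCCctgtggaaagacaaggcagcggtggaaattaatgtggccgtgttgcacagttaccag
Gm28523 exon 1: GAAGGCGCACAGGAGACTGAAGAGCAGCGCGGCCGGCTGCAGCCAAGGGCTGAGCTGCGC
Pde3a exon 1: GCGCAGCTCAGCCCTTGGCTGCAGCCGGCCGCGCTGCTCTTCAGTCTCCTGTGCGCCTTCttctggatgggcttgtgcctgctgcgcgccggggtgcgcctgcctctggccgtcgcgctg

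**Figure D1:**
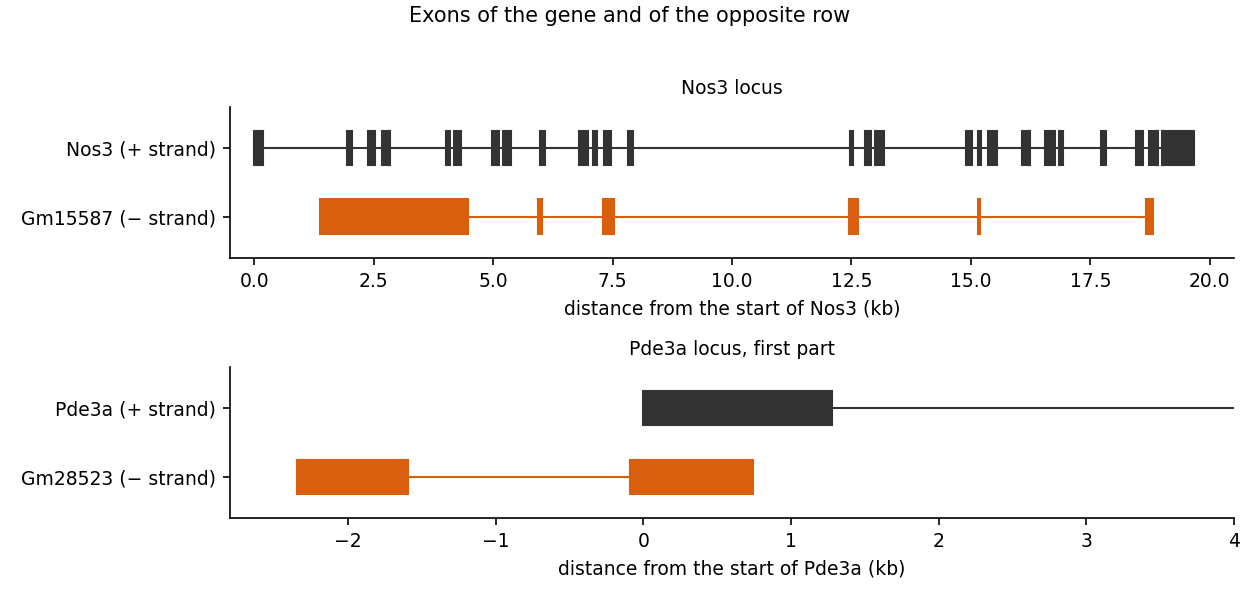
Exons (boxes) of the coding gene in black and of the opposite gene in orange, at the Nos3 locus (top) and the first part of the Pde3a locus (bottom), against the distance in kb from the start of the coding gene. Gm15587 meets Nos3 in 10 separate blocks along the gene, while Gm28523 meets Pde3a only at its first exon.

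Gm15587 stood highest in 3 of the 4 day 10 libraries. Its counts were 141, 234, 98 and 147 in vehicle replicates 2, 4, 5 and 6, and 167, 152, 135 and 141 in day 5 replicates 5, 6, 7 and 8. Day 10 replicates 1, 2, 3 and 5 held 141, 243, 243 and 284 counts. Scaled to depth, vehicle gave 58.5, 65.4, 49.7 and 66.6 CPM and day 5 gave 70.9, 73.1, 63.1 and 71.0 CPM. Day 10 gave 72.5, 167, 153 and 162 CPM, so that replicate 1 lay among the day 5 values and the other 3 lay far above every other library.

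As a mean, Gm15587 was at 60.1 ± 7.76 CPM in vehicle (SD, n = 4), 69.5 ± 4.43 at day 5 (SD, n = 4) and 139 ± 44.4 at day 10 (SD, n = 4). Day 10 replicate 1 was 1.21 times the vehicle mean, and replicates 2, 3 and 5 together were 2.67 times it. The fitted log2 difference from vehicle at day 10 was 1.20 (SE 0.195), which placed Gm15587 at rank 110 of 13181 rows by rise. With the share of CT010467.2 as a covariate that log2 difference was 0.35, and with day 10 replicates 2, 3 and 5 left out it was 0.27. The day 10 difference lies in the same 3 libraries that carry the high CT010467.2 share. That share was high in no library outside day 10, so the covariate and the day 10 group cannot be told apart. Over all rows, 7.08% were called at day 10 against vehicle, 3.93% higher and 3.15% lower. Gm15587 did not overlap the vehicle libraries at day 10, as did 4.98% of all rows in the higher direction, and nothing is read from this because that contrast chose the row.

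At day 5 the log2 difference of Gm15587 from vehicle was 0.21 (95% interval -0.20 to 0.61, edgeR adjusted p 0.665), and the groups overlapped. In this comparison 0.66% of all rows were called, and 0.41% were called higher. Leaving out single libraries kept the value between 0.14 and 0.26.

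Nos3 did not separate the groups. Its counts were 262, 493, 171 and 229 in vehicle, 231, 195, 164 and 166 at day 5, and 188, 206, 203 and 254 at day 10, in the same order of replicates. These gave 109, 138, 86.8 and 104 CPM in vehicle and 98.1, 93.8, 76.6 and 83.6 CPM at day 5. Day 10 gave 96.7, 141, 127 and 145 CPM, so 127 CPM lay within the vehicle range, and 141 and 145 lay just above its highest library. Replicate 1, at 96.7 CPM, lay within the day 5 range.

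The Nos3 mean was 109 ± 21.3 CPM in vehicle (SD, n = 4), 88.0 ± 9.74 at day 5 (SD, n = 4) and 128 ± 22.0 at day 10 (SD, n = 4). The day 5 difference from vehicle was -0.32 on the log2 scale (95% interval -0.65 to 0.014), which did not pass (edgeR unadjusted p 0.0593, adjusted p 0.331). At day 10 the fitted difference was 0.22 (SE 0.159), against 1.20 for Gm15587 in the same libraries. It was -0.15 with the share of CT010467.2 as a covariate and -0.18 with day 10 replicates 2, 3 and 5 left out, and -0.0045 with a GC correction of each library and all 12 libraries kept, so its direction did not hold under these settings. As with Gm15587, day 10 replicate 1 was the lowest of its group for Nos3.

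Gm28523 was the sparsest of the 4 rows, with 2 to 20 counts per library. Vehicle held 7, 7, 10 and 6 counts, day 5 held 11, 18, 16 and 2, and day 10 held 12, 18, 15 and 20. Vehicle therefore stood at 2.90, 1.96, 5.08 and 2.72 CPM, and day 5 at 4.67, 8.66, 7.47 and 1.01 CPM. Day 10 stood at 6.17, 12.4, 9.42 and 11.4 CPM, all above vehicle. Of all rows, 4.98% lay above vehicle at day 10 without overlap. Nothing is read from this for Gm28523, because that contrast chose the row. The exact 95% Poisson interval of day 5 replicate 8 ran from 0.122 to 3.64 CPM, and its 2 counts are below the floor of 3. Intervals and floors cover counting error only.

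The Gm28523 mean was 3.16 ± 1.34 CPM in vehicle (SD, n = 4), 5.45 ± 3.40 at day 5 (SD, n = 4) and 9.84 ± 2.74 at day 10 (SD, n = 4). Summed over a group, these were 30, 47 and 65 counts. Its fitted log2 difference from vehicle at day 10 was 1.66 (SE 0.503), rank 27 of 13181 by rise. That difference was 0.69 with the share of CT010467.2 as a covariate and 1.00 with day 10 replicates 2, 3 and 5 left out. At day 5 the log2 difference was 0.83 (95% interval -0.24 to 1.89, edgeR adjusted p 0.46), and day 5 replicate 8 lay below each vehicle library. In day 10 replicate 1 Gm28523 was 1.95 times its vehicle mean, against 3.50 times in the other 3.

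The 3 groups of Pde3a overlapped, and no difference was detectable at this depth. Its counts were 36, 58, 38 and 39 in vehicle, 37, 44, 43 and 40 at day 5, and 39, 39, 24 and 22 at day 10. These gave 14.9, 16.2, 19.3 and 17.7 CPM in vehicle and 15.7, 21.2, 20.1 and 20.2 CPM at day 5. At day 10 the values spread most, with 20.1, 26.8, 15.1 and 12.6 CPM on both sides of the vehicle range.

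The Pde3a mean was 17.0 ± 1.87 CPM in vehicle (SD, n = 4), 19.3 ± 2.43 at day 5 (SD, n = 4) and 18.6 ± 6.27 at day 10 (SD, n = 4). The day 5 difference from vehicle was 0.18 on the log2 scale (95% interval -0.34 to 0.70, edgeR adjusted p 0.785), so a difference of up to 0.70 is within the interval. At day 10 it was 0.13 (SE 0.257). Leaving out 1 library at a time moved this day 10 value between -0.07 and 0.28, and a GC correction of each library took it to 0.41.

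**Figure D2:**
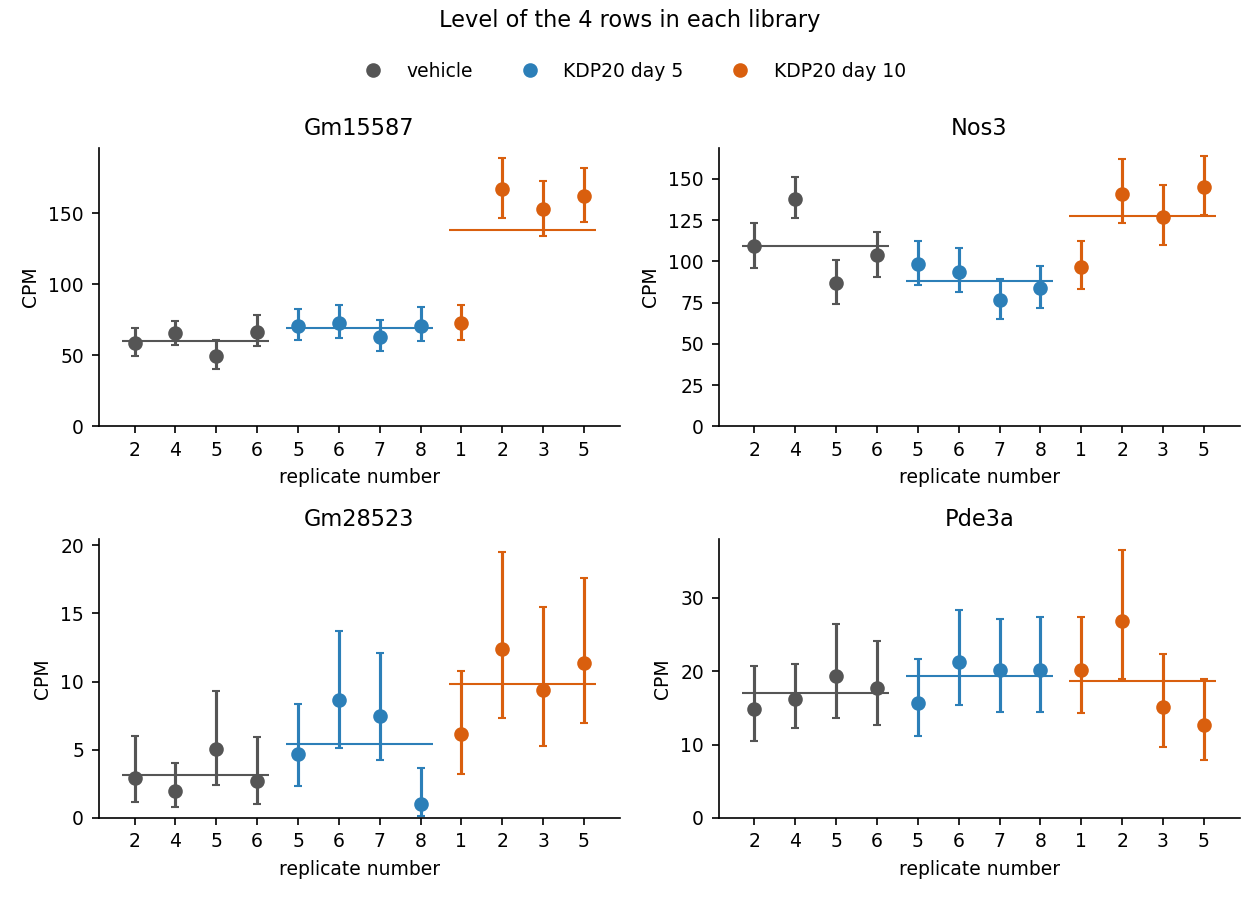
CPM of the 4 rows in each library by replicate number, with exact 95% Poisson intervals as bars and the group mean as a line. Gm15587 lies at 153 to 167 CPM in day 10 replicates 2, 3 and 5 and at 49.7 to 73.1 in the other 9 libraries, while the Nos3 and Pde3a groups overlap.

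Between day 10 and day 5 the fitted log2 difference was 0.99 for Gm15587, 0.53 for Nos3, 0.83 for Gm28523 and -0.06 for Pde3a. These use the same day 10 libraries as the differences above and are not independent of them. Per kb of exon, Nos3 was above Gm15587 in vehicle, at 26.4 against 16.0 CPM per kb, and at day 5, at 21.3 against 18.5. At day 10 the order of the means was the other way, at 30.9 for Nos3 and 36.9 for Gm15587. Day 10 replicate 1 kept the order of vehicle, at 23.4 for Nos3 and 19.3 for Gm15587. Gm28523 lay above Pde3a on this scale in all 3 groups, at 1.99, 3.43 and 6.20 CPM per kb against 1.34, 1.51 and 1.46. The long exon total of Pde3a, most of it outside the shared block, enters that comparison.

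The share of each locus that fell in its opposite row uses both rows at once and does not depend on the scaling of libraries. The share was chosen after the values had been seen. Of the Gm15587 and Nos3 counts together, Gm15587 held 35.0%, 32.2%, 36.4% and 39.1% in vehicle and 42.0%, 43.8%, 45.2% and 45.9% at day 5. At day 10 it held 42.9%, 54.1%, 54.5% and 52.8%, with replicate 1 again among the day 5 values. The day 5 and vehicle libraries did not overlap, with a mean of 44.2% ± 1.74 (SD, n = 4) against 35.7% ± 2.88 (SD, n = 4). The difference was 8.54 points (2-sided exact permutation p 0.0286, the smallest that 4 against 4 allows). The adjusted p of that permutation test over the 2 loci was 0.0571, which did not pass. At this smallest p the Nos3 locus could pass only if the Pde3a locus reached it too, so nothing is read from the lack of a pass. The vehicle libraries also served the choice of Gm15587. Leaving out 1 of the day 5 and vehicle libraries at a time gave 7.37 to 9.68 points. Gm15587 was slightly higher and Nos3 slightly lower at day 5, and neither passed on its own.

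This shift of share was seen beside a shift in many other loci. Among 1394 pairs of a non-coding row opposite a coding gene, the share in the non-coding row was higher at day 5 than in vehicle in 69.6%, by a median over all pairs of 1.11 points. In 9.04% of pairs the 4 day 5 libraries all lay above the 4 vehicle libraries, as at the Nos3 locus. At day 10 the share was higher in 57.5% of pairs, with a median of 0.44 points, and 4.59% did not overlap.

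At the Pde3a locus, Gm28523 held 16.3%, 10.8%, 20.8% and 13.3% of the counts of both rows in vehicle, and 22.9%, 29.0%, 27.1% and 4.76% at day 5. The mean difference was 5.65 points (2-sided exact permutation p 0.371) and 2.96 to 11.1 points with 1 library left out, with day 5 replicate 8 the lowest of all 12 libraries. At day 10 the share was 23.5%, 31.6%, 38.5% and 47.6%. These shares rest on 39 to 65 counts per library, and their Wilson intervals are wide.

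**Figure D3:**
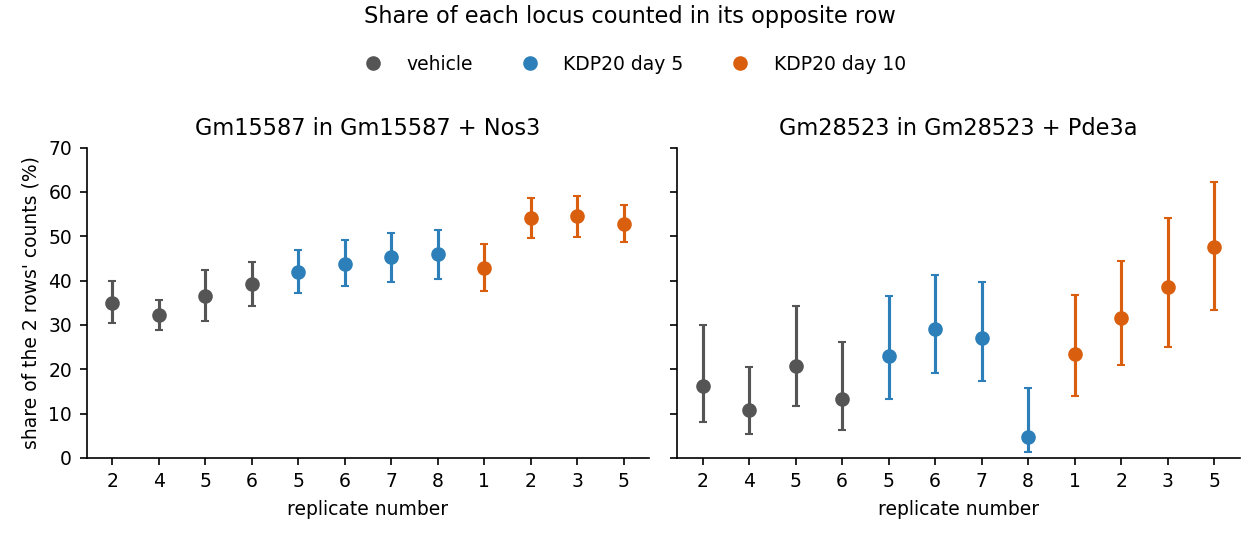
Share of the counts of both rows of a locus that fell in the opposite row, in percent, by library, with 95% Wilson intervals as bars. At the Nos3 locus the vehicle libraries lie at 32.2% to 39.1%, the day 5 libraries at 42.0% to 45.9%, and day 10 replicates 2, 3 and 5 at 52.8% to 54.5%.

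The levels of both opposite rows were set beside the CT010467.2 share in each library. Gm15587 was at 49.7 to 73.1 CPM in the 9 libraries with a share of at most 12.6%, and at 153 to 167 CPM in the 3 with a share of at least 17.9%. Within the 9, the lowest Gm15587 level, 49.7 CPM, was at a share of 10.1%, and 65.4 CPM was at a share of 7.40%. Gm28523 was at 1.01 to 8.66 CPM in the 9 libraries and at 9.42 to 12.4 CPM in the 3. Nos3 lay at 76.6 to 138 CPM in the 9 and 127 to 145 in the 3, and its ranges overlapped. What the CT010467.2 row reflects was not tested.

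**Figure D4:**
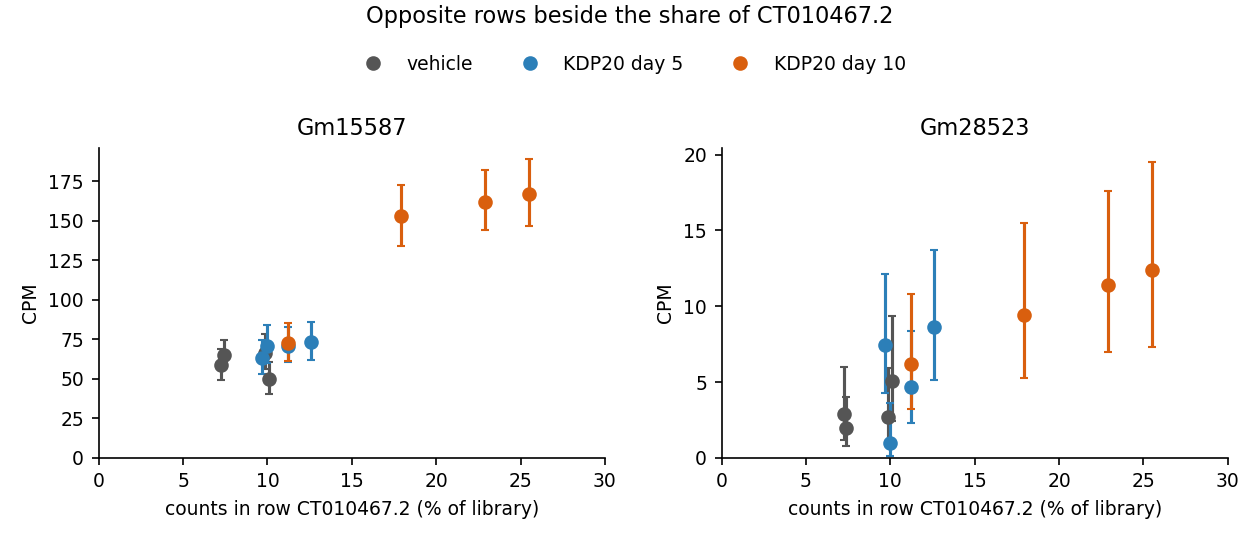
CPM of Gm15587 (left) and Gm28523 (right) with exact 95% Poisson intervals, against the percentage of a library's counts in the row CT010467.2. The 3 day 10 libraries with 17.9% or more hold the highest value of either row, and day 10 replicate 1, at 11.2%, lies beside the day 5 libraries.

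The rows most like Gm15587 over the 12 libraries, by Pearson r of log2 CPM, were Uckl1os (r = 0.966), Gm44081 (0.959), Phf2 (0.957), Arhgdig (0.953) and Gm48952 (0.95). Of these, 4 lie opposite a coding gene, namely Zfp512b and Uckl1, Srgap3, Rgs11, and Nrbp2. Phf2, a histone demethylase, does not. Each of the 5 had its lowest day 10 value in replicate 1, as in Arhgdig with 85.9 CPM against 205 to 259 in the other 3. The points share these libraries and the CT010467.2 share, and the value of r is a description.

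The rows most like Gm28523 were Gm20647 (r = 0.928), E130310I04Rik (0.908), Tmem208 (0.907), Gm11739 (0.89) and 4930425K24Rik (0.888). Gm20647 lies opposite Corin, the protease that activates natriuretic peptide. E130310I04Rik lies opposite Mylk, the myosin light chain kinase of smooth muscle, and had 557 ± 128 CPM in vehicle (SD, n = 4) and 833 ± 155 at day 10 (SD, n = 4). Tmem208 lies opposite Fhod1, and Gm11739 and 4930425K24Rik have no opposite row. The low counts of Gm28523 limit how well any row can match it.

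Nos3 was the highest of 20 genes of nitric oxide synthesis and supply in its own row, at 26.2 CPM per kb over all libraries. These are levels of rows, which may differ from those of the genes, as the strand setting is not given. Arg2, an arginase that competes for the substrate of the synthases, followed at 18.1 CPM per kb. The neuronal synthase Nos1 stood at 0.731 CPM per kb, and the inducible synthase Nos2 at 0 to 3 counts per library, at or below the floor. Without Nos3, 8 own rows of the list were tested, and 0 were called by edgeR at either day, with 1 at an unadjusted p under 0.05 at day 10 and 0 at day 5. Their median log2 difference was -0.16 at day 10, beside -0.01 over all rows, and 0.12 at day 5, beside -0.03. Without Gm15587, 0 of 5 tested opposite rows were called by edgeR. Of these, 2 had an unadjusted p under 0.05 at day 10 and 1 at day 5. Over all rows edgeR called 7.08% at day 10 and 0.66% at day 5, so 0 calls in lists this short say little. The counts at an unadjusted p, here and below, have no share of all rows beside them. The DESeq2 test called 1 own row at day 10, Akt1, a kinase that activates Nos3, and 1 opposite row, Atg9b. Over all 13181 rows it called 1362 at day 10 and 514 at day 5, the background for its calls here and below. At day 5 it gave no adjusted p for any of the 5 opposite rows or for 6 of the 8 own rows, and it called 0 of the other 2.

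Atg9b, the other gene opposite Nos3, had 15.7 ± 3.92 CPM in vehicle (SD, n = 4), 23.0 ± 2.71 at day 5 (SD, n = 4) and 25.6 ± 8.35 at day 10 (SD, n = 4). Its log2 difference was 0.56 at day 5 (edgeR adjusted p 0.279) and 0.71 at day 10 (edgeR adjusted p 0.0897), and neither passed in edgeR. Day 10 replicate 1 was the lowest of its group in Atg9b too, at 18.5 CPM.

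Pde3a ranked 11 of 21 phosphodiesterases in own rows per length, at 1.44 CPM per kb. Pde7a and Pde8b, which are specific for cyclic AMP, led at 17.9 and 15.0, and Pde5a, specific for cyclic GMP, was at 2.26. The close relative Pde3b was at 1.77. Without Pde3a, 0 of 13 tested own rows were called by edgeR at day 10 (3 at an unadjusted p under 0.05) or day 5 (0), with a median log2 difference of -0.11 at day 10 and -0.10 at day 5. Pde7a had 161 ± 8.27 CPM in vehicle (SD, n = 4) and 119 ± 19.2 at day 10 (SD, n = 4), a log2 difference of -0.42 (edgeR adjusted p 0.0562). Without Gm28523, 0 of 4 tested opposite rows were called by edgeR. Of these, 2 had an unadjusted p under 0.05 at day 10 and 0 at day 5. The edgeR counts stand beside 7.08% of all rows at day 10 and 0.66% at day 5, and lists this short say little. At day 10 the DESeq2 test called Pde7a among the own rows and 2 opposite rows, Gm50138 opposite Pde9a and Gm48420 opposite Pde8b, and at day 5 it called 0 of the 4 own and 3 opposite rows with an adjusted p.

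Between Nos3 and Pde3a stand the guanylate cyclases and the targets of cyclic GMP. Of 17 guanylate cyclase and natriuretic peptide genes, 4 own rows could be tested and 0 were called by edgeR at either day, with 1 at an unadjusted p under 0.05 at each day. The DESeq2 test called 1 of them at day 10, Gucy2e, and left 3 of the 4 without an adjusted p at day 5. Npr2, a natriuretic peptide receptor that makes cyclic GMP, was the highest at 10.2 CPM per kb, and the peptide gene Nppa followed at 9.5. Of 3 tested opposite rows, 0 were called by edgeR, with 2 at an unadjusted p under 0.05 at day 10 and 1 at day 5. The DESeq2 test called 1 of the 3 at day 10, Gm12473 opposite Npr2. The own row of the soluble cyclase subunit Gucy1b1 had 0 counts in all 12 libraries, and that of Gucy1a1 had 0 to 4. An own row may not show the level of its gene where the strand setting is not given. Of 13 cyclic GMP effectors and channels, 0 of 6 tested own rows were called by edgeR at either day (0 at an unadjusted p under 0.05). With 7.08% of all rows called at day 10 and 0.66% at day 5, 0 calls in either list say little. DESeq2 gave an adjusted p for 3 of the 6 at day 10 and called 0 of these, and gave none at day 5. Pln, a brake on the calcium pump, was the highest at 8.78 CPM per kb.

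In opposite rows, 1 of 4 tested effector rows was called at day 10, beside 7.08% of all rows. 4930519K11Rik, opposite the calcium-activated potassium channel gene Kcnma1, was at 453 ± 54.9 CPM in vehicle (SD, n = 4) and 675 ± 126 at day 10 (SD, n = 4), with a log2 rise of 0.57 (edgeR adjusted p 0.0194). The own row of Kcnma1 was at 18.5 ± 4.18 and 26.9 ± 10.1 CPM (SD, n = 4 each), with a log2 difference of 0.53 (edgeR adjusted p 0.268). As for Gm15587, day 10 replicate 1 of 4930519K11Rik was lower, at 488 CPM, than the other 3 at 715 to 761.

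On the cyclic AMP side, 1 of 18 tested own rows was called at day 10, where 7.08% of all rows were called, so the count is near that background. Rapgef4, an exchange factor activated by cyclic AMP, fell by 1.23 on the log2 scale, from 20.8 ± 5.67 CPM in vehicle (SD, n = 4) to 8.76 ± 1.85 at day 10 (SD, n = 4), with an edgeR adjusted p of 0.0192. In opposite rows 3 of 10 were called at day 10, 2 higher and 1 lower, beside 3.93% and 3.15% of all rows. Gm29331, opposite the adenylyl cyclase gene Adcy6, rose by 0.59 on the log2 scale, from 200 to 302 CPM (edgeR adjusted p 0.0165). Rapgef3os1, opposite the exchange factor gene Rapgef3, rose by 1.01, from 15.9 ± 2.78 to 32.1 ± 10.2 CPM (SD, n = 4 each, edgeR adjusted p 0.0204). Its day 10 replicate 1 was at 17.0 CPM, against 35.4 to 38.4 in replicates 2, 3 and 5. The own row of Rapgef3 was at 3.26 ± 1.73 and 7.39 ± 1.78 CPM (SD, n = 4 each), with a log2 difference of 1.11 (edgeR adjusted p 0.172). Mppe1, a coding gene opposite the olfactory G protein gene Gnal, fell by 0.53, from 3970 to 2760 CPM (edgeR adjusted p 0.0338). The own row of Gnal was at 111 ± 15.6 and 106 ± 4.85 CPM (SD, n = 4 each). The DESeq2 test also called Gm35161, opposite the adenylyl cyclase gene Adcy2, at day 10 (edgeR adjusted p 0.0505).

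Among 19 other genes of vascular tone, 1 of 9 tested own rows and 1 of 5 tested opposite rows were called at day 10, beside 7.08% of all rows, and counts this small say little against that background. The adrenergic receptor Adra1d rose by 1.08 on the log2 scale, from 13.9 ± 4.59 CPM in vehicle (SD, n = 4) to 29.1 ± 11.6 at day 10 (SD, n = 4), with an edgeR adjusted p of 0.0287. 1110018N20Rik, opposite the prostacyclin synthase gene Ptgis, rose by 1.14, from 26.7 ± 6.15 to 58.8 ± 24.4 CPM (SD, n = 4 each), with an edgeR adjusted p of 0.0129. The own row of Ptgis was at 24.7 ± 1.63 and 25.9 ± 8.31 CPM. In day 10 replicate 1 the row 1110018N20Rik was at 25.7 CPM, against 55.2 to 80.0 in the other 3.

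The 7 calls above and Gm11946, a smooth muscle entry below, depended on the libraries entered. All 8 passed without day 10 replicate 1, and 0 of 8 passed without day 10 replicate 2 or without day 10 replicate 5. The log2 differences changed less than the calls: without replicate 2, 4930519K11Rik stood at 0.55, Rapgef4 at -1.18 and 1110018N20Rik at 1.03, and without replicate 5 at 0.51, -1.21 and 0.95. Without day 10 replicate 3, 3 passed, and without vehicle replicate 2, 4, 5 or 6, 2, 4, 6 and 4 passed. With the share of CT010467.2 as a covariate, 0 of 8 passed and 4930519K11Rik stood at 0.065, Rapgef4 at -0.83 and 1110018N20Rik at -0.13, and with a GC correction of each library, 3 did. At day 5, where 0.66% of all rows were called, edgeR called 0 of 58 own and 0 of 31 opposite rows of the 6 lists. Of these, which leave out the 4 rows, 4 and 9 had an unadjusted p under 0.05. The DESeq2 test called 0 own rows and 1 opposite row there, Gm20721 opposite the G protein gene Gnas, and it left 43 and 13 of them without an adjusted p.

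**Figure D5:**
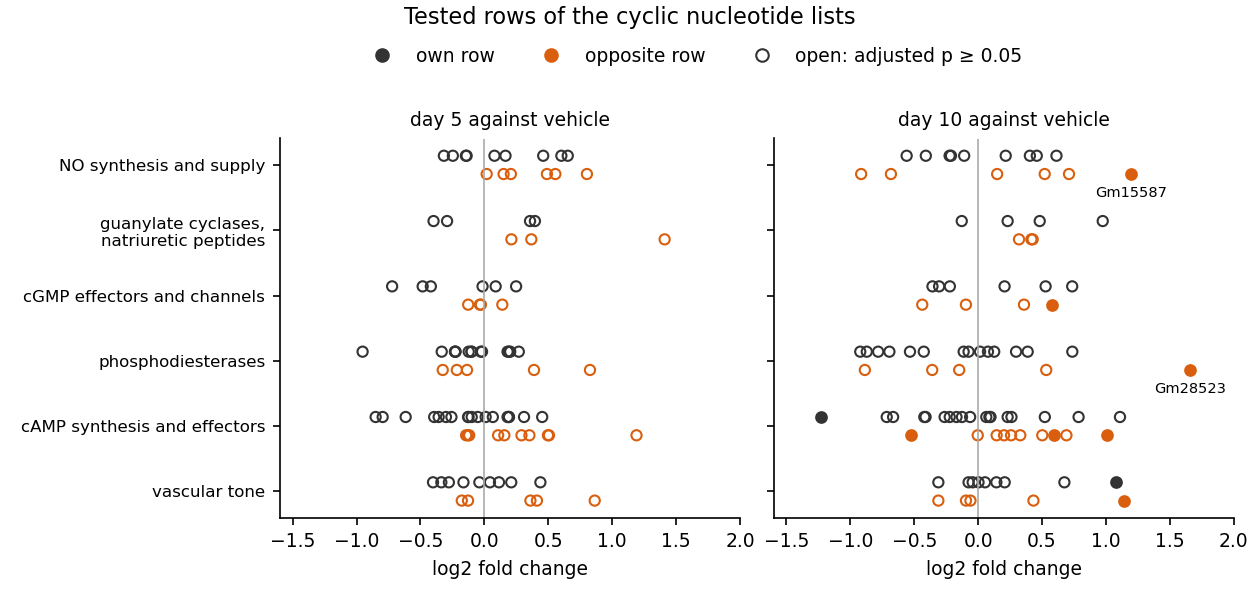
Fitted log2 difference from vehicle of each tested own row (black) and opposite row (orange) in the 6 cyclic nucleotide and vascular lists, at day 5 (left) and day 10 (right), with filled points for an edgeR adjusted p under 0.05. No point is filled at day 5, and the 2 opposite rows labelled at day 10 are the ones chosen from that contrast.

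Endothelial, smooth muscle, platelet and nasal markers were read beside Nos3 and Pde3a. The 18 endothelial markers summed in own rows to 67.0 to 88.1 CPM in vehicle, 62.6 to 73.1 at day 5 and 68.0 to 92.9 at day 10. None of the 18 was at 0 in all libraries, but own rows of single defining genes were sparse. They held 0 to 22 counts for the adhesion molecule Pecam1. The endothelial cadherin Cdh5 held 0 to 7 and the growth factor receptor Kdr 0 to 11. The highest of the 18 per length were Plvap, with 13 to 64 counts at 6.84 CPM per kb, and Egfl7, with 20 to 62 at 4.28. Nos3 itself had 164 to 493 counts per library, so its row was far above the rows of these markers. Own rows of some abundant genes were low here, as for Cyp2f2 and for the actin gene Actb at 48.7 CPM in vehicle. An own row may therefore not show the level of its gene. Of the 18, 6 own rows were tested and 0 were called by edgeR at either day (0 at an unadjusted p under 0.05). Beside 7.08% of all rows called at day 10 and 0.66% at day 5, 0 of 6 says little. DESeq2 gave an adjusted p for 2 of the 6 at day 10 and called 0 of these, and gave none at day 5. In bulk tissue, fewer cells of a type and less RNA per cell cannot be told apart.

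The 12 smooth muscle and pericyte markers summed in own rows to 340 to 376 CPM in vehicle, 294 to 311 at day 5 and 337 to 377 at day 10. The lower day 5 sum was carried by Notch3, at 102 CPM in vehicle and 68.0 at day 5, and Cspg4, at 30.6 and 17.4, while Tagln was at 130 in both and Lmod1 at 8.88 and 12.4. Their part in the values of Pde3a was not tested. Of these, 0 of 9 tested own rows were called by edgeR at day 5 (2 at an unadjusted p under 0.05) or day 10 (0), while DESeq2 called 1 at day 5, the pericyte receptor Notch3, and 0 at day 10. Tagln, a contractile gene, was the highest at 64.1 CPM per kb. The edgeR share over all rows was 7.08% at day 10 and 0.66% at day 5. In opposite rows edgeR called 1 of 4 at day 10, beside 3.93% of all rows called higher, and 0 at day 5. This was Gm11946, opposite the smooth muscle gene Smtn, with a log2 rise of 0.62, from 754 to 1160 CPM (edgeR adjusted p 0.0179). Day 10 replicate 1 of Gm11946 was at 753 CPM and the other 3 at 1250 to 1360. DESeq2 also called Pcsk7 opposite Tagln and Gm17276 opposite Notch3 at day 10, and Gm48529 opposite Tagln at day 5.

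The 9 platelet and red cell markers summed in own rows to 183 to 217 CPM in vehicle, 178 to 201 at day 5 and 154 to 206 at day 10. Most of the vehicle sum was the red cell gene Alas2, at 164 CPM, and the platelet gene Itga2b was at 32.8 CPM there. Gp1bb, part of the platelet adhesion receptor, was at 0 in all libraries. The 14 nasal epithelial and olfactory markers summed to 648 to 831 CPM in vehicle, 534 to 784 at day 5 and 603 to 737 at day 10 in own rows, against 21400 to 34000 CPM over all libraries in 4 opposite rows. Most of the latter were counts of Gm15883, and whether they come from the markers or from the genes that name the rows cannot be told apart. At day 5, 1 of 4 tested nasal and 1 of 2 tested muscle opposite rows were called higher, beside 0.41% of all rows, namely Gm44323, opposite the basal cell keratin Krt5, with a log2 rise of 0.94 (edgeR adjusted p 0.0469), and Gm48752, opposite the muscle gene Mybpc1, with 2.19 (edgeR adjusted p 0.0344). Gm48752 was at 3.80 ± 0.719 CPM in vehicle (SD, n = 4) and 17.8 ± 13.3 at day 5 (SD, n = 4), and the part of muscle in the values of Nos3 and Pde3a was not tested. Both calls were lost without vehicle replicate 2 or 6 and without day 5 replicate 5, 6 or 8. The Gm48752 call was also lost without vehicle replicate 4 and the Gm44323 call without vehicle replicate 5, with adjusted p values over all 8 omissions of 0.0213 to 0.146 and 0.0146 to 0.211.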

How the data were processed

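Gene counts were deposited for 12 libraries, and per the submitters' processing notes the authors used FastQC, Trim Galore, STAR and HTSeq with mm10. The sources used here do not give versions, annotation, counting mode or strand handling. Of 55487 rows, 55227 identifiers were found in GENCODE M21. An opposite row shares at least 50 exon bases with a gene on the other strand (bedtools 2.31.1, Python 3.11.15).

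Rows were filtered with filterByExpr, which left 13181 rows with 98.3% of counts. They were scaled by TMM and fitted in edgeR 4.0.16 (R 4.3.3, quasi-likelihood F test, group as the only term, 12 libraries). A row was called at an adjusted p under 0.05 (Benjamini-Hochberg, all tested rows). Log2 CPM for the likeness of rows used a prior count of 2. Shares were compared by exact permutation over libraries. Alternatives were DESeq2 1.42.0 (scaling and test), upper-quartile scaling, 2 other filters, the 8 compared libraries, the replicate block, a GC correction, the CT010467.2 row as a covariate or left out, the 2 rows of a locus summed, and leaving out each library. Leaving out day 10 replicates 2, 3 and 5 together, and the share of a locus, were added after seeing the data. The fit was tested on simulated data.

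Members and lists were chosen with earlier results of these data known. The rule for names took the members, list genes with a called own or opposite row, and the 2 genes per list with the highest level per length. It also took the 5 rows most like each opposite member. Not every gene under the rule is printed. Gene names beyond this rule (Atg9b, Pde5a, Pde3b, Nos1, Nos2, Gucy1a1, Gucy1b1, Pecam1, Cdh5, Kdr, Cspg4, Lmod1, Gp1bb, rows called by DESeq2 alone and own rows beside called opposite rows) were chosen after their values were seen.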

Additional observations from a re-analysis of the deposited data

Results flagged for a closer look

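Within groups of 4 libraries, the highest and the lowest value were set against the nearest other value as a part of the group's range, for the 4 rows, the share of each locus and the CT010467.2 share. Of 21 such groups, 2 had a library past Dixon's 95% critical value. Chance flags about 1 in 20 groups, a rate that does not apply to values used in choosing the row. Both were day 10 replicate 1, with 72.5 CPM for Gm15587 and a share of 42.9% for the opposite row at the Nos3 locus, each far below the other 3 libraries of its group. Both measures use the day 10 counts of Gm15587, which chose the row, so they are not independent, and they are given as a description with no test.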

How the results depend on the processing

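Of 232 values of the 4 rows under the alternatives, 215 kept their direction and call or, with no test, moved by less than 1 SD of the replicates. The cause of the changes below was not tested. A high CT010467.2 share occurred in no library outside day 10, so that covariate and the day 10 group cannot be told apart. Rows called at day 10 against vehicle numbered 933 in all, but 423 with the 8 compared libraries alone, 401 with a GC correction (326 higher and 75 lower, against 518 and 415), 0 with the share of CT010467.2 as a covariate (500 at an unadjusted p under 0.05) and 0 with day 10 replicates 2, 3 and 5 left out (912). At day 5, 87 rows were called, but 278 with no filter, 135 with the 10 CPM filter, which removed Gm28523, 514 with the DESeq2 test, 656 with the 8 libraries and 370 with the covariate. Between day 10 and day 5, 1337 rows became 2 with the covariate (1356 at an unadjusted p under 0.05) and 0 without the 3 libraries (1142).

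With the covariate, the log2 difference at day 10 against vehicle was 0.35 for Gm15587, -0.15 for Nos3 and 0.69 for Gm28523, and against day 5 it was 0.32 and 0.25 for Gm15587 and Nos3, and 0.065 for Gm28523 (0.49 to 1.13 with 1 library left out). Without the 3 libraries it was 0.27, -0.18 and 1.00 against vehicle, and 0.061 and 0.14 for Gm15587 and Nos3 against day 5, and day 10 replicate 1 alone stood for its group, assumed to vary like the others. With the GC correction, Nos3 and Pde3a stood at -0.0045 and 0.41 against vehicle, and Pde3a at 0.16 against day 5, where it was below 0 without it. Summing both rows of a locus gave 0.65 at day 10 for Nos3 with Gm15587 and 0.49 for Pde3a with Gm28523. It gave 0.75 for Nos3 with Gm15587 against day 5, and -0.11 at day 5 against vehicle, which is below 0 where Gm15587 alone was above it. 1110018N20Rik turned to -0.13 with the covariate and -0.036 without the 3 libraries.

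Leaving out 1 library gave 95 (without day 10 replicate 5) to 2684 (without day 10 replicate 1) calls at day 10 against vehicle, 5 to 209 at day 5 and 623 to 2689 between days. At day 5, no alternative that gave an adjusted p brought one of the 4 rows past the threshold, with values of at least 0.146.

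Whether the replicate numbers pair the libraries is not known. Deviations of same-numbered libraries correlated by -0.089 to 0.12 over 5 pairs. This cannot decide it, as differently numbered libraries were not set beside them. With the replicate block, 1701 rows were called at day 10 against vehicle (777 higher and 924 lower) and 33 at day 5, and Nos3 at day 10 stood at 0.53. Depth limits Gm28523 most, at 2 to 20 counts.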
